A study of Mus musculus with 42 samples.

Results

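RNA of distal colon crypts was compared in mice that had recovered from dextran sulfate sodium (DSS), with 3 samples homozygous for the P209T substitution in MTG16 (T/T) and 3 wild-type (WT) samples. They are all 6 libraries of sequencing request 5740, out of 42 libraries under 14 conditions in the series. The series compares colon epithelium of Mtg16-deficient, Mtg16 T/T and WT mice before and after injury. It also holds distal tumors of T/T and WT mice given azoxymethane and DSS. The mice were of a C57BL/6J background by the study (C57/BL6 in the labels) and at least 8 weeks old. T/T and WT mice were matched offspring of heterozygous breeders. Both genotypes drank 2% w/v DSS for 5 days and then water for 4 days, so every library here carries injury and recovery. Crypts were released by chelation from the distal 5.0 cm of colon, and 1 bulk RNA-seq library was made per sample. T/T is a germline point mutation, carried in epithelium and all other cells. For comparison, distal crypts of the same colony without DSS (T/T, n = 4; WT, n = 3) and distal crypts after the same DSS course of an independent Mtg16 null colony (Mtg16 -/-, n = 4; WT, n = 3) were used. The labels number the libraries as replicates without stating that each came from a separate mouse, so the p-values measure the spread between these samples, which may in part be technical.

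MTG16, encoded by Cbfa2t3, is a transcriptional corepressor that does not bind DNA itself and is brought to genes by transcription factors, among them the E proteins E2A (Tcf3) and HEB (Tcf12), which bind E-boxes. E proteins pair with tissue-specific basic helix-loop-helix factors such as ATOH1, which commits crypt progenitors to the secretory lineage, and NEUROG3, which commits secretory progenitors to enteroendocrine fate. The P209T change weakens binding of MTG16 to E2A and HEB. DSS erodes the colonic epithelium, and the distal colon is injured most. Repair runs through surviving crypt cells that turn on fetal-like and growth factor genes before mature goblet, absorptive, tuft and enteroendocrine cells are rebuilt.

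The depth recovered from the deposited values was 74661922, 47860525 and 58192946 reads in the WT libraries and 43676972, 34495101 and 55317582 in the T/T libraries, and 13648 of 17683 listed genes had a mean of at least 10 normalized counts. Levels below are normalized counts, in the order of replicates 1, 2 and 3, and a difference is T/T minus WT on the log2(normalized count + 1) scale with its standard error (SE). Epithelial marker genes were present in all 6 libraries at a summed level of 956244 to 1663280. Xist read at most 4.29 and the Y-linked Ddx3y at least 75.8 in each of them. The libraries differed along gene GC content: GC-rich genes read high in WT 1, WT 2 and T/T 3 (Spearman rho of a gene's deviation with its GC 0.506, 0.585 and 0.559) and low in WT 3, T/T 1 and T/T 2 (-0.462, -0.541 and -0.622). Among the 10% of genes with the lowest GC, median 41.1%, the median deviation was -0.64, -0.94 and 0.41 in WT and 0.33, 1.26 and -0.43 in T/T. This trend lies unevenly across the genotypes, so the fit was repeated after a smooth trend with GC and length was removed from every library ("GC-adjusted"), and its difference is given for several genes whose value moved.

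**Figure D1:**
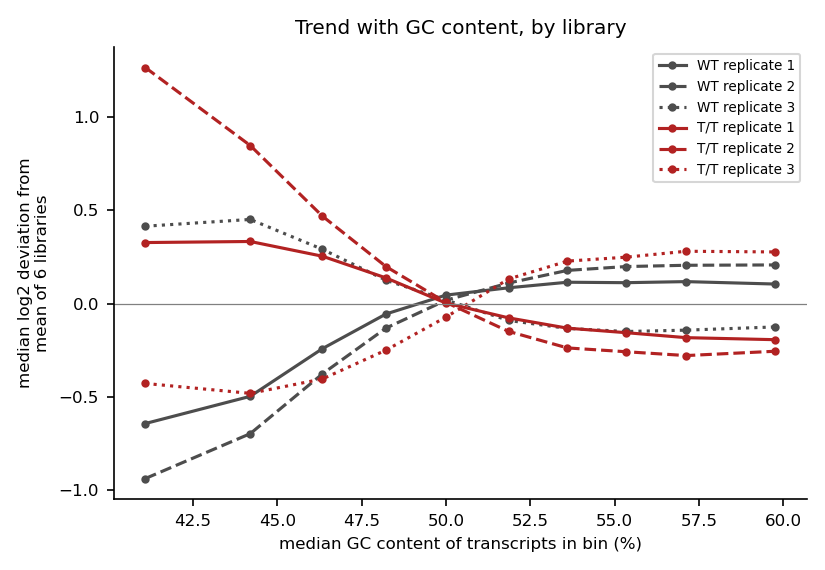
Median deviation of genes from their mean over the 6 libraries (y axis, log2 normalized counts) by decile of GC content (x axis), 1 line per library. In the lowest decile the libraries spread from -0.94 (WT 2) to 1.26 (T/T 2), and in the highest from -0.25 to 0.28. WT 3 runs with T/T 1 and T/T 2, and T/T 3 with WT 1 and WT 2.

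Cbfa2t3 (chr8:122625141-122699109, minus strand, GRCm38) was read in both genotypes after DSS. Its level was 3126, 3087 and 2244 in WT and 3073, 2956 and 3125 in T/T, which overlap. The difference was 0.13 (SE 0.19; adjusted p = 0.84, limma), and the exact two-sided permutation p was 0.90, where 3 against 3 cannot go below 0.10. The gene-level value does not read the base change, so it does not check the genotype labels. Without DSS, Cbfa2t3 read 937, 985 and 1040 in WT and 1919, 1813, 1509 and 2196 in T/T (difference 0.90, adjusted p = 0.25, limma). The genotypes did not overlap there, with an exact two-sided permutation p of 0.0286, the smallest that 4 against 3 allows. The effect after DSS minus that at baseline was -0.77 (adjusted p = 0.29). In the null colony after DSS it was 2020, 1845 and 2519 in WT and 427, 594, 595 and 486 in null crypts (difference -2.02, adjusted p = 0.0029, limma).

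No gene of the 13648 passed an adjusted p of 0.05 by limma in T/T against WT after DSS. The smallest adjusted p was 0.0567, 1197 genes (8.77%) had an unadjusted p under 0.05, and edgeR's quasi-likelihood test on recovered reads also gave 0 calls. DESeq2 on the same reads gave 334 calls (2.45%), 156 higher (1.14%) and 178 lower (1.3%) in T/T. GC-adjusted limma gave 58 calls (0.425%), 18 higher (0.132%) and 40 lower (0.293%), of which 47 were also DESeq2 calls. The 3 T/T values lay all above the 3 WT values in 772 genes (5.66%) and all below them in 1095 (8.02%). Over all tested genes the median difference was 0.03. Leaving out WT 3 gave 1 limma call, leaving out T/T 2 gave 3, and leaving out any other library gave 0. Genes are therefore described as higher or lower by their values, as "wholly" higher or lower where the genotypes did not overlap, and a call by DESeq2 or by the GC-adjusted fit is named as such. Counts of wholly higher and wholly lower genes in the lists below stand against 5.66% and 8.02% of all genes. Many of the genes given as examples were chosen after their values were seen.

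The lowest adjusted p was shared by 5 genes, Tgm2, Muc1, Dbp, Yy2 and Chil3. Tgm2 (chr2:158116402-158146436, minus strand), a transglutaminase that cross-links proteins of the matrix, read 1860, 1843 and 2386 in WT and 9273, 6988 and 8750 in T/T. No T/T library came near the WT range, and the difference was 2.04 (SE 0.19; adjusted p = 0.057, limma; 0.032 GC-adjusted). Tgm2 overlaps Rprd1b on the opposite strand, so reads of the shared stretch could be split between them. Muc1 (chr3:89229057-89233381, plus strand), a transmembrane mucin of the apical surface, read 4722, 3974 and 4000 in WT and 786, 1136 and 1025 in T/T. Every T/T library was thus below every WT library, by 2.12 on the log2 scale (SE 0.20; adjusted p = 0.057, limma). Dbp is a clock output factor. Chil3, a chitinase-like protein of macrophages and neutrophils, read 0.706, 0 and 0 in WT and 27.9, 58.7 and 37.2 in T/T, and blood cell markers given further on were higher as well.

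Bmp8b, a BMP family ligand, read 67.8, 86.9 and 88.7 in WT and 479, 375 and 342 in T/T, a difference of 2.28 (SE 0.26). Bmp8b overlaps Ppie and Oxct2b, so its count is uncertain where reads could be shared. Trim15, a tripartite motif protein, read 1407, 1031 and 1474 in WT against 3520, 3505 and 3805 in T/T, a difference of 1.48 (SE 0.20; GC-adjusted adjusted p = 0.040, limma). Apba2, an adaptor of the amyloid precursor protein, read 28.9, 14.5 and 15.5 in WT against 129, 109 and 172 in T/T. Ly6d, a GPI-anchored surface protein of keratinocytes and early B cells, read 111, 89.2 and 54.3 in WT and 427, 230 and 514 in T/T, with a difference of 2.17 (SE 0.41; GC-adjusted adjusted p = 0.044, limma). In all 4 genes the genotypes did not overlap. Apba2 shares its strand with other annotated transcripts and its count is uncertain to that extent. Ido1, which starts tryptophan breakdown and is induced by interferon-gamma, read 354, 470 and 1129 in WT and 5873, 2105 and 3896 in T/T, a difference of 2.66 that DESeq2 called (adjusted p = 0.00053), and 2.44 GC-adjusted.

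Among genes lower in T/T, Mptx1, a pentraxin of the intestinal epithelium, had one of the widest gaps. It read 19139, 15972 and 25315 in WT against 512, 3522 and 632 in T/T, a difference of -4.24 (-4.72 GC-adjusted, with adjusted p = 0.040, limma). Tppp3, a tubulin polymerization promoting protein, read 1647, 1841 and 836 in WT against 204, 183 and 169 in T/T, a difference of -2.88 (SE 0.33). Adora1, an adenosine receptor, read 202, 129 and 177 in WT against 23.6, 25.8 and 20.5 in T/T, a difference of -2.79 (SE 0.30). Each of these lay wholly below WT. Wfdc2, a secreted protease inhibitor, read 10366, 10687 and 7461 in WT and 2545, 3213 and 3756 in T/T, with a difference of -1.58 (SE 0.22; GC-adjusted adjusted p = 0.032, limma). Dlk1, a noncanonical Notch ligand, read 930, 989 and 816 in WT and 70.8, 169 and 188 in T/T, a difference of -2.78. Cpm, carboxypeptidase M, read 999, 882 and 990 in WT and 305, 373 and 214 in T/T.

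A pair of genes was at 0 in every library of 1 genotype. Exosc6, an exosome subunit, read 341, 380 and 43.1 in WT (mean 255, SD 184) and had no read in any T/T library. At the floor of 3 counts per library, 3.44 normalized counts, the WT mean was at least 74.1-fold above T/T, and the lowest WT library, WT 3, at least 12.5-fold. Yy2 had no read in any WT library and read 21.5, 17.2 and 32.6 in T/T (mean 23.7, SD 7.95), which is at least 8.85-fold higher against a floor of 2.68. Exosc6 overlaps Aars and Yy2 overlaps Mbtps2, each on the same strand as the other gene, so the assignment of their reads is uncertain. In the null colony Exosc6 also ranged from 0 upward inside a genotype, reading 307, 0 and 412 in WT and 165, 0, 0 and 188 in null crypts.

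**Figure D2:**
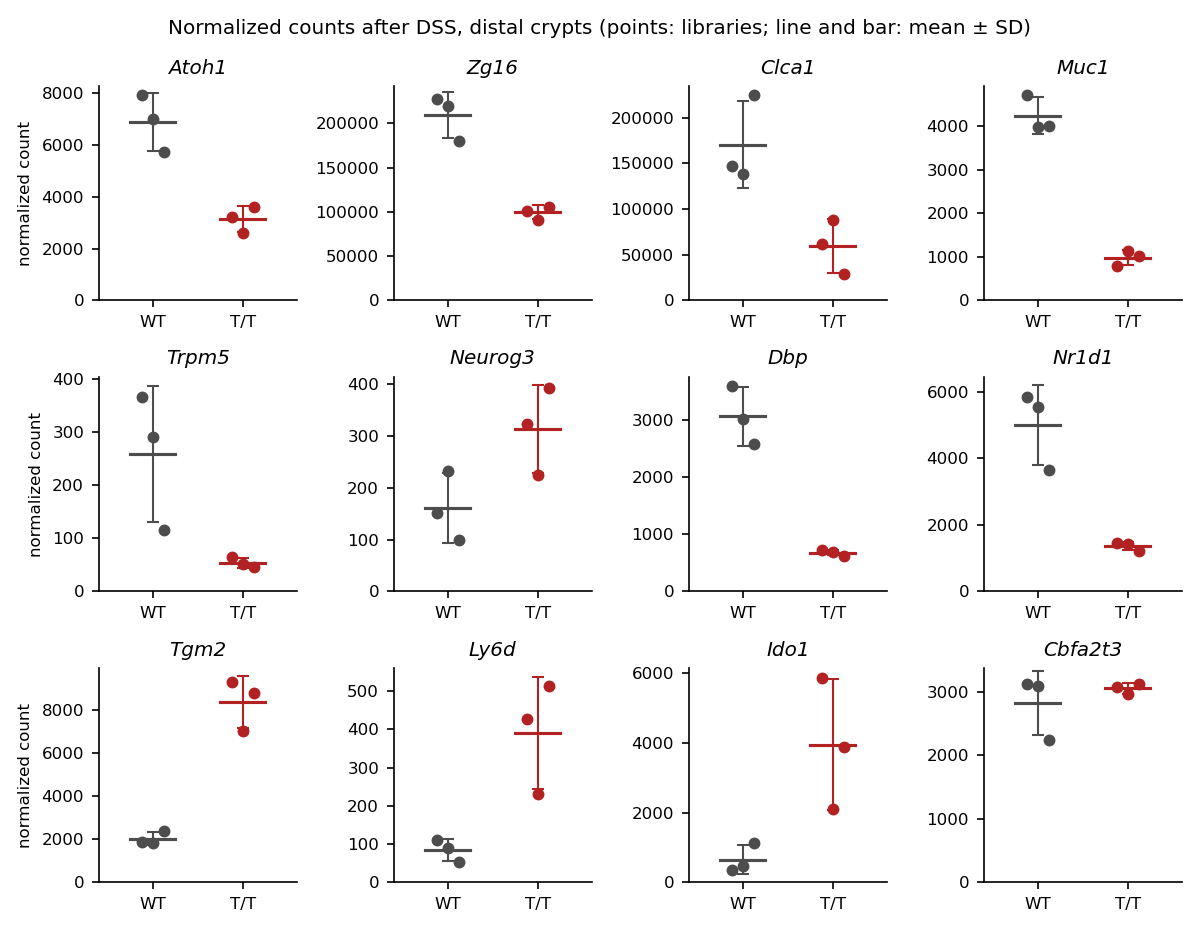
Normalized counts (y axis, linear from 0) of 12 genes in the 3 WT and 3 T/T libraries after DSS, where points are libraries, the line and bar are mean ± SD. Cbfa2t3 and Neurog3 overlap between the genotypes, while Tgm2 lies at 6988 or above in T/T against 2386 or below in WT, and Dbp at 716 or below in T/T against 2572 or above in WT.

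The secretory commitment factor and several goblet cell products were lower in T/T crypts after DSS. Atoh1 (chr6:64729125-64731245, plus strand) read 7938, 7013 and 5716 in WT and 3225, 2608 and 3605 in T/T. Its genotypes did not overlap, and the difference was -1.13 (SE 0.20; GC-adjusted adjusted p = 0.049, limma; 0.0011, DESeq2). Over the 9 tested goblet cell factors the median difference was -0.42, with 4 wholly lower (8.02% of all genes were) and 0 wholly higher (5.66%). Atoh1 was the 1 GC-adjusted call (0.425% of all genes). Spdef, which acts after ATOH1 in goblet maturation, read 7196, 7240 and 5543 in WT against 6310, 4900 and 7639 in T/T and overlapped.

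Of 16 tested goblet cell products, 8 were wholly lower (8.02% of all genes were) and 2 wholly higher (5.66%). The median was -0.49, with 4 GC-adjusted calls (0.425% of all genes), all lower. Zg16, a lectin that binds Gram-positive bacteria in the mucus, read 228197, 220149 and 180565 in WT against 101627, 90684 and 105977 in T/T, a difference of -1.07 (SE 0.16; GC-adjusted adjusted p = 0.032, limma). Clca1, a mucus-processing protease, read 146711, 138756 and 224666 in WT against 61898, 88144 and 28711 in T/T, a difference of -1.62 (-1.88 GC-adjusted, with adjusted p = 0.041, limma). Spink4 (difference -0.95) and the kallikrein Klk1 (-1.24) were the other 2 GC-adjusted calls. The trefoil factor Tff3 and the mucin chaperone Agr2, also goblet products, differed by 0.15 and 0.08 (Agr2 by -0.18 GC-adjusted). In the other direction, the angiogenin Ang4 read 466, 755 and 35.3 in WT and 4336, 2428 and 1434 in T/T, a difference of 3.40 (3.15 GC-adjusted). Both directions thus occurred among goblet products.

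Enteroendocrine transcription factors leaned higher in T/T after DSS, and other enteroendocrine lists were mixed. Over 17 tested enteroendocrine factors the median difference was 0.95, with 6 wholly higher (5.66% of all genes were) and 0 wholly lower (8.02%). Over 24 hormones and granule genes it was 0.24, with 4 wholly higher and 1 wholly lower. Neither group had a GC-adjusted call, and the GC-adjusted medians were 0.73 and 0.07. Without T/T 2 the factor median was 0.58. Neurog3 read 151, 232 and 98.2 in WT and 323, 225 and 393 in T/T. T/T 2 fell inside the WT range, and the difference of 1.01 (SE 0.39; adjusted p = 0.52, limma) did not pass. Neurod2 read 7.76, 12.3 and 1.72 in WT against 32.2, 32.9 and 28.9 in T/T, and Pax4, a factor of early endocrine cells, read 21.9, 21.2 and 25.0 in WT against 42.9, 44.4 and 46.5 in T/T. Among hormones, neurotensin (Nts) read 12.0, 22.3 and 9.48 in WT and 105, 61.5 and 31.7 in T/T, a difference of 2.03 that DESeq2 called (adjusted p = 0.022), and 1.23 GC-adjusted. Chga, a granule protein of all enteroendocrine cells, read 3976, 4145 and 4148 in WT and 3247, 4052 and 5472 in T/T, with no separation.

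Of the 8 tested genes that the study named as higher without DSS in both Mtg16 null and T/T distal crypts, 5 were wholly higher here and 0 wholly lower, with a median of 0.91. They were chosen on other libraries than the 6 compared here. Insrr, the insulin receptor-related receptor, read 114, 83.6 and 240 in WT and 392, 568 and 401 in T/T, a difference of 1.76 (SE 0.42) that DESeq2 called (adjusted p = 0.022). Without DSS Insrr read 32.4, 43.1 and 40.5 in WT and 346, 278, 442 and 369 in T/T (difference 3.17, adjusted p = 0.0064, limma). Pex5l, a relative of the peroxisomal import receptor, read 54.3, 41.2 and 72.4 in WT and 114, 223 and 142 in T/T, a difference of 1.48 that DESeq2 called (adjusted p = 0.017). Agt, angiotensinogen, overlapped at 267, 262 and 286 in WT and 237, 292 and 398 in T/T.

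The stretch of 250 bases before the Neurog3 start (RefSeq, GRCm38.p6, chr10:62132840-62133089, plus strand) holds 1 CANNTG E-box, shown because E proteins bind this motif. Capitals mark it. CANNTG, read on both strands and including CACGTG, occurs in 66.2% of 32851 promoters of this length, so its presence is common.
Neurog3: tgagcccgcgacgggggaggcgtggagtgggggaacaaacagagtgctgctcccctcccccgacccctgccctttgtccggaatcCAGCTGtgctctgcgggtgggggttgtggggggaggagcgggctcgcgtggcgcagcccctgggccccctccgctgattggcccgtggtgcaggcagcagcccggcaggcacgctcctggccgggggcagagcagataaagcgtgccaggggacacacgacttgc

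Most tuft cell markers leaned lower in T/T, with 14 of 17 tested negative and 3 positive. Over 17 tested markers the median difference was -1.30, against 0.03 for all genes, with 10 wholly lower (8.02% of all genes were), 0 wholly higher, 3 DESeq2 calls and 0 GC-adjusted calls. Over the 434 tested genes of the study's tuft signature the median was -0.06, with 71 wholly lower and 14 wholly higher. Trpm5, the taste transduction channel, read 366, 291 and 116 in WT and 64.4, 51.5 and 46.5 in T/T, a difference of -2.09 (SE 0.46; DESeq2 adjusted p = 0.00083). Dclk1, a kinase that marks tuft cells, read 247, 235 and 189 in WT and 123, 64.4 and 28.9 in T/T, a difference of -1.84 (SE 0.52), and -2.17 GC-adjusted. The lineage factor Pou2f3 read 65.6, 52.4 and 29.3 in WT and 15.0, 8.58 and 12.1 in T/T, a difference of -1.91. All 3 genes separated the genotypes. WT 3 was the lowest WT library in each, and within the library sets the tuft median was -1.78 (WT 1 and WT 2 against T/T 3) but -0.39 (WT 3 against T/T 1 and T/T 2). In bulk crypts, fewer cells of a type and less RNA per cell cannot be told apart.

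Absorptive colonocyte genes were mixed and leaned lower. Of 30 tested, 12 were wholly lower (8.02% of all genes were) and 3 wholly higher (5.66%). The median was -0.35, with 1 GC-adjusted call (0.425% of all genes). That call was Selenbp1, a selenium-binding protein, which read 68911, 70549 and 51230 in WT against 28875, 29452 and 41646 in T/T (difference -0.94). The water channel Aqp8 read 26983, 34936 and 29388 in WT and 12777, 14146 and 9190 in T/T, a difference of -1.35 (DESeq2 adjusted p = 0.00021). The carbonic anhydrase Car4 read 40882, 47022 and 60214 in WT and 21029, 27760 and 20838 in T/T, a difference of -1.08. Slc37a2, a sugar-phosphate transporter, read 4782, 4373 and 10512 in WT and 617, 2050 and 737 in T/T, a difference of -2.63. These 4 genes did not overlap between genotypes. Tmigd1, an adhesion protein of the brush border, went the other way, at 247, 276 and 185 in WT and 923, 791 and 398 in T/T, and Car1 overlapped at 8572, 15692 and 7882 against 29234, 13370 and 12337.

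**Figure D3:**
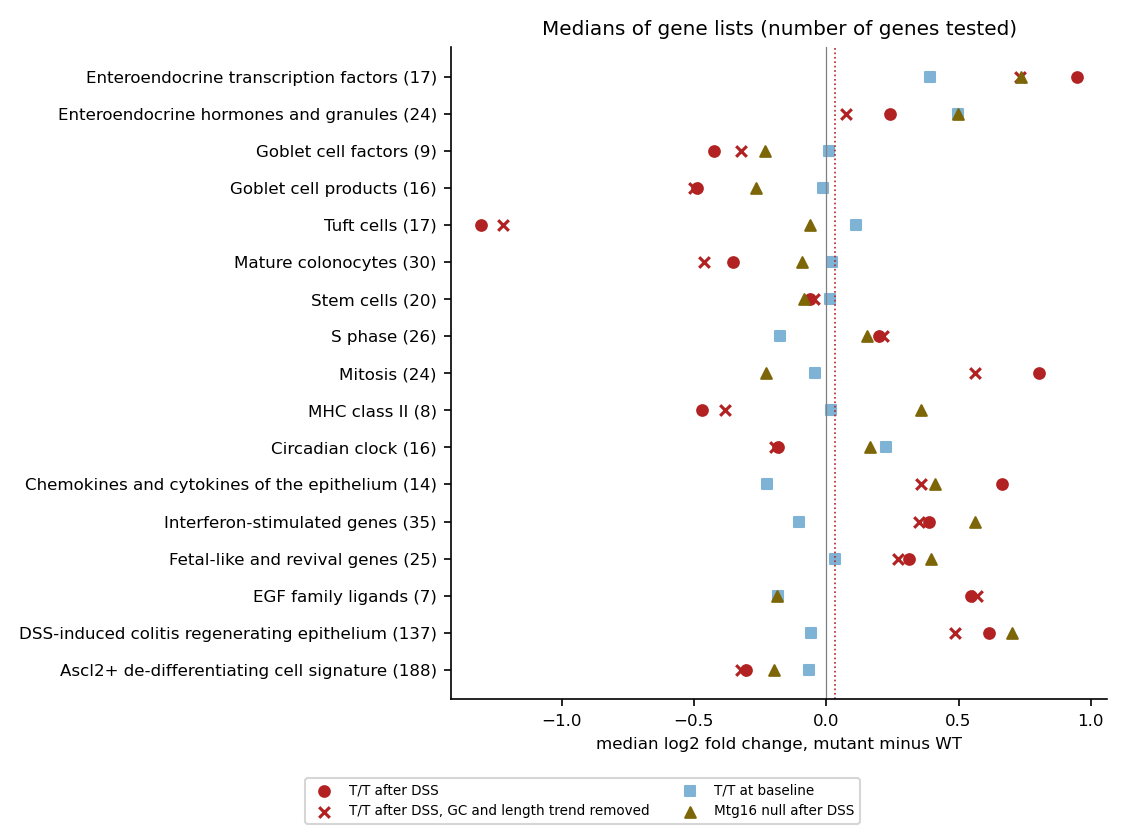
Median log2 difference (x axis) of 17 gene lists (rows) in T/T against WT after DSS, in the same comparison with the GC and length trend removed, in T/T against WT at baseline and in Mtg16 null against WT after DSS. The dotted line is the median of all genes. Tuft genes lie at -1.30 in T/T after DSS, 0.11 in T/T at baseline and -0.06 in null crypts after DSS.

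Circadian clock genes were shifted in opposed directions, with the D-box factors and Nr1d1 low and Nfil3 high in T/T. In the clock, BMAL1 (Arntl) and CLOCK bind E-boxes and drive Per, Cry, Nr1d1, Dbp, Tef and Ciart, whose products feed back, while NFIL3 and the DBP family compete for D-boxes. Dbp (chr7:45705088-45710203, plus strand) read 3600, 3017 and 2572 in WT and 716, 691 and 627 in T/T. The genotypes lay far apart, with a difference of -2.16 (SE 0.19; adjusted p = 0.057, limma). Nr1d1, the REV-ERB-alpha repressor of Arntl, read 5832, 5546 and 3637 in WT and 1444, 1438 and 1224 in T/T, a difference of -1.84 (SE 0.23; GC-adjusted adjusted p = 0.041, limma). Ciart, a repressor of the clock activators, read 545, 350 and 594 in WT and 221, 253 and 187 in T/T, and Tef, a D-box factor, read 6233, 5074 and 5566 in WT and 3393, 3591 and 3325 in T/T. All 4 lay wholly below WT.

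Arntl and Nfil3 were high where these outputs were low. Arntl read 349, 455 and 834 in WT and 1015, 1155 and 886 in T/T, a difference of 0.99 (SE 0.34). Nfil3 read 199, 189 and 217 in WT and 401, 348 and 494 in T/T, a difference of 1.02 that DESeq2 called (adjusted p = 0.0028). Cry1 read 848, 766 and 1335 in WT and 1361, 1594 and 1901 in T/T. In total, of 16 tested clock genes 3 were wholly higher (5.66% of all genes were) and 6 wholly lower (8.02%). DESeq2 called 1 higher and 4 lower (1.14% and 1.3% of all genes), and the GC-adjusted fit 0 and 2 (0.132% and 0.293%). Per1 (difference -0.28), Per2 (-0.17) and Per3 (-0.55) had smaller differences, and Per1 was wholly lower. Dbp overlaps Sphk2 and Nr1d1 overlaps Thra on the opposite strand, so shared reads are uncertain for both.

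Clock outputs also differed among libraries of 1 genotype elsewhere in the series. At baseline Dbp read 21.9, 249 and 1530 in WT and 92.3, 76.5, 140 and 4002 in T/T, and in the null colony after DSS 440, 47.9 and 165 in WT and 522, 333, 305 and 340 in null crypts. Clock transcripts cycle over the day, and the hour at which each mouse was sampled is not given in the sources used here, so genotype and sampling hour cannot be told apart for these genes.

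**Figure D4:**
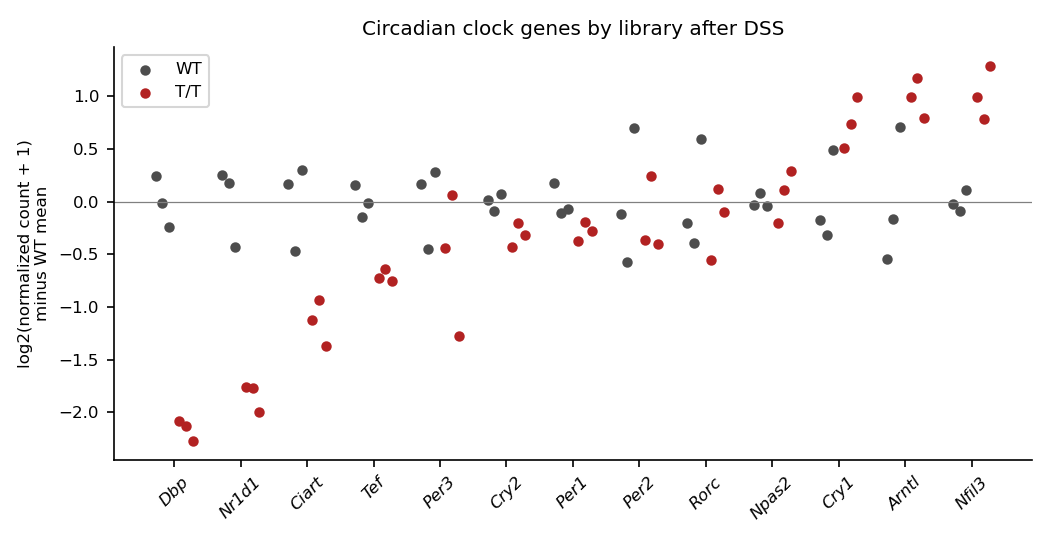
Level of 13 clock genes in each of the 6 libraries after DSS, as log2 minus the WT mean (y axis), where points are libraries, WT and T/T in separate colors. Dbp, Nr1d1, Ciart and Tef lie below 0 in the 3 T/T libraries, and Arntl, Nfil3 and Cry1 above it.

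The 250 bases before each start are shown for clock genes that hold either motif and for Dbp and Nr1d1, which differed most (RefSeq, GRCm38.p6), with the E-box CACGTG and the D-box TTATGTAA, searched on both strands, in capitals. CACGTG occurs in 6.02% and TTATGTAA in 0.819% of 32851 promoters of this length. Ciart (chr3:95882229-95882478, minus strand) holds 3 CACGTG, Tef holds 1 before each of 2 starts (chr15:81802423-81802672 and chr15:81811164-81811413, plus strand), Per1 holds 1 before 1 of 2 starts (chr11:69098699-69098948, plus strand), Cry1 (chr10:85185055-85185304, minus strand), which was higher in T/T, holds 1, and Per3 (chr4:151044666-151044915, minus strand) holds 2 TTATGTAA. Dbp (chr7:45704997-45705246, plus strand) and Nr1d1 (chr11:98775378-98775627, minus strand) hold neither motif in this window, and nor do Arntl, Nfil3 and Cry2, which are not shown.
Ciart: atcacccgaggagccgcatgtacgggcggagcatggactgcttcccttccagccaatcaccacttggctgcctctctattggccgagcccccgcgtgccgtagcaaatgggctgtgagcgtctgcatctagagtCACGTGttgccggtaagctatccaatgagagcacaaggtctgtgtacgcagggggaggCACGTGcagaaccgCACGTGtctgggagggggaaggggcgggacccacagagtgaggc
Tef, first start: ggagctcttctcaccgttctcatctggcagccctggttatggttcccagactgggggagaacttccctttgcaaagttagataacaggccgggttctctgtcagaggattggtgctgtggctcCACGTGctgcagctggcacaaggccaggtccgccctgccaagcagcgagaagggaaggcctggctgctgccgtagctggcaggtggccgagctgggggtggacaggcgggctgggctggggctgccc
Tef, second start: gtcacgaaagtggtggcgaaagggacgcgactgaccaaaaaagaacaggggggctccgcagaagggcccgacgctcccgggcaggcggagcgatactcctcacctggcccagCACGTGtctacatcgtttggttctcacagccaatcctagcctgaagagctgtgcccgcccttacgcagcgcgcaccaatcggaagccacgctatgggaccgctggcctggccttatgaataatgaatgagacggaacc
Per1: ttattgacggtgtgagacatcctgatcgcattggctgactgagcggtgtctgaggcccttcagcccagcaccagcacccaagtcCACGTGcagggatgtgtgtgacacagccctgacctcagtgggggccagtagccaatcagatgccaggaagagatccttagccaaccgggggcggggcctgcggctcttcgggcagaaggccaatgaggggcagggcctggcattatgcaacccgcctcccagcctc
Cry1: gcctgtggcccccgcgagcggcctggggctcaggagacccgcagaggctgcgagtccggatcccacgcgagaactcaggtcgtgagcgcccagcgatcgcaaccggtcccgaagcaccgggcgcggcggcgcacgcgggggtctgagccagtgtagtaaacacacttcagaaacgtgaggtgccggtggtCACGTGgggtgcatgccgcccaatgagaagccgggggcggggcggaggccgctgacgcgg
Per3: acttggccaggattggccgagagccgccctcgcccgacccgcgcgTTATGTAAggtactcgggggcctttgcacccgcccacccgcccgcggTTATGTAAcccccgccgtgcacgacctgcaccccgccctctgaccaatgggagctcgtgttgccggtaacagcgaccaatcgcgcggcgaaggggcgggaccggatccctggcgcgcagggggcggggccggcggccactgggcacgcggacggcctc
Dbp: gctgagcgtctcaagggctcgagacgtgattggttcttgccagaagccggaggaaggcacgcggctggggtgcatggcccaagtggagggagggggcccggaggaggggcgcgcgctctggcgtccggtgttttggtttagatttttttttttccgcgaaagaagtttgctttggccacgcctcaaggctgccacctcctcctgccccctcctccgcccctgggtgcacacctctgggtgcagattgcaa
Nr1d1: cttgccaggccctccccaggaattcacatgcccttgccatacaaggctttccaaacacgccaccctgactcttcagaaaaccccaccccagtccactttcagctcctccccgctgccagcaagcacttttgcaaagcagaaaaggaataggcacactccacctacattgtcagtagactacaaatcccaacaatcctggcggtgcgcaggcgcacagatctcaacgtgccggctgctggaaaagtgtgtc

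Antigen presentation and defence genes split. MHC class II molecules load and display peptides and are expressed by epithelium under interferon-gamma as well as by leukocytes. Of 8 tested class II genes 6 were wholly lower (8.02% of all genes were) and 1 wholly higher (5.66%), with a median of -0.47. H2-Aa read 25823, 31427 and 33535 in WT and 15380, 14409 and 14473 in T/T, a difference of -1.03 (SE 0.15; DESeq2 adjusted p = 8.1e-05; GC-adjusted adjusted p = 0.070, limma). Cd74, the invariant chain, read 93688, 104749 and 101116 in WT and 66731, 59316 and 71781 in T/T. The class II transactivator Ciita overlapped at 2114, 2189 and 4219 in WT and 2470, 2831 and 2498 in T/T. H2-DMb2 was the member wholly higher, at 10.6, 20.1 and 14.6 in WT and 45.1, 30.0 and 113 in T/T.

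Of 19 tested antimicrobial and defence genes 5 were wholly higher (5.66% of all genes were) and 2 wholly lower (8.02%), with a median of 0.00. The antibacterial lectin Reg3b read 19014, 19990 and 4796 in WT and 107528, 36097 and 43552 in T/T, a difference of 2.18 (SE 0.65; DESeq2 adjusted p = 0.040). Reg3g read 5012, 4079 and 1499 in WT and 29694, 11752 and 6363 in T/T. Both separated the genotypes, with T/T 1 the highest library and WT 3 the lowest. Tgm3, an epithelial transglutaminase, went the other way at 33185, 31106 and 56700 in WT and 8970, 17310 and 12775 in T/T.

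Of 14 chemokines and cytokines 4 were wholly higher (5.66% of all genes were) and 0 wholly lower (8.02%). Their median of 0.66 was 0.36 GC-adjusted. Cxcl1, a neutrophil attractant, read 21.9, 29.0 and 48.2 in WT and 61.2, 55.8 and 40.0 in T/T, and Cxcl2, of the same kind, read 64.2, 6.69 and 28.4 against 80.5, 348 and 47.5. Both overlapped. Cxcl9, an interferon-gamma-induced T cell attractant, read 25.4, 23.4 and 82.7 in WT and 389, 172 and 196 in T/T, a difference of 2.65 (SE 0.58; DESeq2 adjusted p = 0.0038), and 2.32 GC-adjusted. Cxcl10 read 27.5, 16.7 and 62.9 in WT and 155, 119 and 144 in T/T. The 35 tested interferon-stimulated genes had a median of 0.39 with 1 wholly higher, Usp18, and the sign of that median differed between the library sets, 0.64 in WT 1 and WT 2 against T/T 3 and -0.22 in the others.

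Repair-associated genes leaned higher in T/T in the short list used here. Of 25 tested fetal-like and revival genes 8 were wholly higher (5.66% of all genes were) and 1 wholly lower (8.02%), with a median of 0.31. Mmp7, matrilysin, read 76.9, 104 and 97.4 in WT and 270, 365 and 645 in T/T, a difference of 2.11 (DESeq2 adjusted p = 2.4e-05). Msln, mesothelin, read 26.8, 11.1 and 17.2 in WT and 51.5, 71.5 and 146 in T/T, and Emp1, an epithelial membrane protein, read 7662, 7199 and 4343 in WT and 34657, 17445 and 9445 in T/T. All 3 lay above WT in each T/T library. The best known members were not among them: Clu, the revival stem cell marker, read 128, 93.6 and 80.1 in WT and 48.3, 98.7 and 80.1 in T/T, and Ly6a (Sca-1), a marker of the fetal-like state, read 35623, 35501 and 43145 in WT and 40755, 36907 and 56608 in T/T. Both overlapped.

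Of 7 tested EGF receptor ligands 4 were wholly higher (5.66% of all genes were), with a median of 0.55. Areg, amphiregulin, read 485, 485 and 526 in WT and 921, 1072 and 1004 in T/T, a difference of 1.00 (SE 0.18; DESeq2 adjusted p = 3.1e-05; GC-adjusted adjusted p = 0.072, limma). Hbegf read 735, 596 and 470 in WT and 819, 823 and 957 in T/T, while Egf itself overlapped at 285, 217 and 314 against 143, 243 and 139.

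Each of the 24 tested mitosis genes had a positive difference, with a median of 0.80, but 3 were wholly higher and 1, Cenpe, was a DESeq2 call. Mki67 read 620, 576 and 1817 in WT and 2405, 8129 and 1712 in T/T (difference 1.89, and 1.64 GC-adjusted). WT 3 lay above T/T 3, and the T/T mean was raised by T/T 2. The GC-adjusted median of the list was 0.56. Each of the 26 S phase genes was positive as well, with a median of 0.20, and 1 was wholly higher. Mcm2 and Mcm3, subunits of the replicative helicase, differed by 0.05 and 0.20. T/T 2 was also the library in which GC-poor genes read highest.

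Stem, Wnt and Notch lists lay near the median of all genes, and posterior Hox genes below it. The 20 tested stem cell genes had a median of -0.06 with 0 wholly higher and 1 wholly lower, and Lgr5 read 160, 172 and 267 in WT and 264, 434 and 120 in T/T. Medians were -0.12 for 11 Wnt targets, -0.11 for 13 Notch genes, -0.01 for 7 E protein and Id genes, 0.15 for 8 corepressor genes, -0.03 for 15 intestinal identity factors, -0.11 for 16 immediate early genes and 0.12 for 18 unfolded protein response genes. Of 10 posterior Hox genes, which set position along the gut, 1 was wholly higher (5.66% of all genes were) and 2 wholly lower (8.02%). Their median was -0.43 and lay between -0.84 and -0.13 in the other settings, with 7 of 10 negative and 0 GC-adjusted calls. Hoxa11 read 151, 187 and 128 in WT and 500, 269 and 322 in T/T, and Hoxb13 read 24423, 26309 and 21706 in WT and 9518, 13067 and 19012 in T/T.

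Gene lists that the study used as signatures covered repair and mature cell programs, and their counts stand against 5.66% of all genes wholly higher and 8.02% wholly lower. Of 137 tested genes of regenerating epithelium after DSS, 41 were wholly higher and 3 wholly lower, with a median of 0.61 and 5 GC-adjusted calls, all higher. Of 188 genes of dedifferentiating Ascl2-positive cells 10 were wholly higher and 54 wholly lower (median -0.30), and of 423 absorptive cell genes 18 and 93 (median -0.17). The enteroendocrine list of 146 genes had 33 wholly higher and 8 wholly lower (median 0.40, and 0.23 without T/T 2), while the lists of its stages had medians of 0.13 (early, 180 genes, 18 and 16), 0.24 (early to intermediate, 61 genes, 9 and 3), 0.37 (intermediate, 78 genes, 12 and 5), 0.21 (intermediate to late, 375 genes, 43 and 37) and -0.04 (late, 469 genes, 37 and 58). GC-adjusted, the median of the intermediate list was 0.17 and that of the early list 0.01. Among cell subtypes, the L-cell list of 10 genes had 1 and 1 (median -0.24) and the enterochromaffin list of 17 genes 3 and 3 (median 0.08). The goblet list of 386 genes had 11 and 56 (median -0.06) and the list of 161 BEST4-positive cell genes 12 and 29 (median -0.19). The fetal list of 227 genes had 32 and 24 (median 0.12, and 0.04 GC-adjusted), the Clu-positive revival list of 391 genes 27 and 9 (median 0.20, and 0.02 GC-adjusted) and another revival list, of 48 genes, 8 and 7 (median -0.04).

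Markers of blood cells also differed between the genotypes. Summed red blood cell markers read 152, 155 and 413 in WT and 2300, 541 and 2612 in T/T, B cell markers 38.1, 66.9 and 99.1 against 302, 169 and 577, plasma cell markers 229, 279 and 371 against 619, 701 and 495, and neutrophil markers other than Ly6g 709, 109 and 208 against 1510, 2366 and 1197. Each of these sums separated the genotypes, with all 4 tested red blood cell genes, 5 of 6 B cell genes and 7 of 8 neutrophil genes wholly higher in T/T. Ly6g, the remaining neutrophil marker, went the other way at 7657, 7278 and 11574 in WT and 4210, 5442 and 6856 in T/T. With Ly6g included, the neutrophil sum was 8366, 7387 and 11782 in WT and 5720, 7809 and 8053 in T/T, which overlap. Ngp, a granule protein of immature neutrophils, read 0, 0 and 1.72 in WT and 55.8, 31.5 and 65.2 in T/T. The pan-leukocyte sum was 1162, 1044 and 1032 in WT and 1225, 1434 and 2155 in T/T, also without overlap. Summed markers of T cells, macrophages, fibroblasts, smooth muscle, endothelium, and neurons and glia overlapped, although the 7 tested fibroblast genes were all positive (median 0.67) and both tested neuron and glia genes separated the genotypes, 1 in each direction. Ileal and Paneth cell markers were wholly lower by sum, at 1127, 1060 and 1205 in WT and 526, 957 and 488 in T/T. Of the 10 epithelial markers 9 were negative, with a median of -0.27. The part of blood cells in the chemokine, defence, class II, Ido1 and Ly6d values was not tested.

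The T/T differences after DSS were set beside those of Mtg16 null crypts after DSS and of T/T crypts without injury, 3 comparisons that share no library. Of 329 DESeq2-called genes also tested in the null colony, 300 had the same sign there (91.2%), against 6673 of 13536 of all genes (49.3%). Of 287 also tested at baseline, 132 had the same sign in T/T without DSS (46.0%), against 4714 of 13243 of all genes (35.6%). A same sign includes differences that passed no test. For scale, limma gave 5 calls (0.0369%) at baseline and 91 (0.629%) in the null colony, where the fit with the Xist level as a covariate gave 19 (the null colony libraries mix sexes, with Xist from 0 to 32425) and the fit with replicate number as a block gave 1271 that included all 91.

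**Figure D5:**
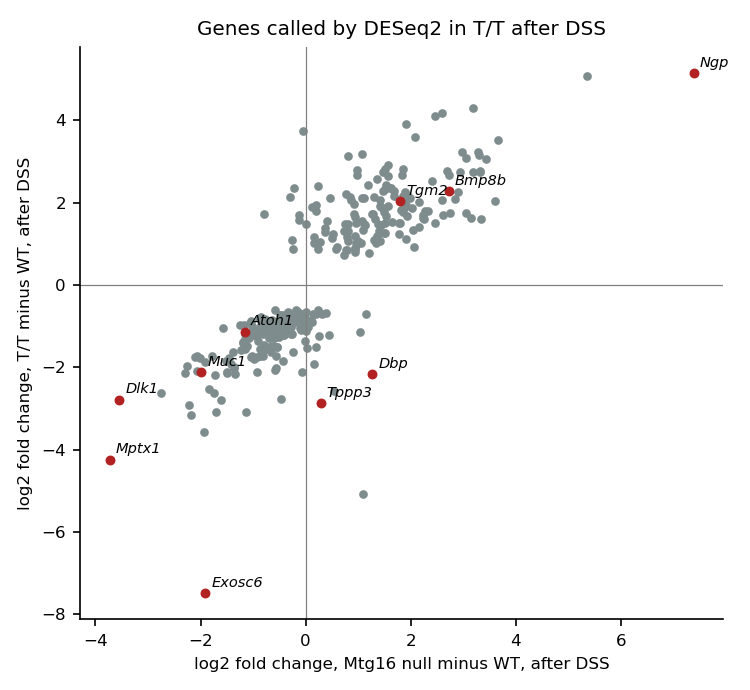
Log2 difference of the 329 genes called by DESeq2 in T/T after DSS, 1 point per gene. The x axis is Mtg16 null against WT after DSS and the y axis T/T against WT after DSS. Muc1, Atoh1, Mptx1 and Dlk1 are negative and Tgm2 and Bmp8b positive in both, while Dbp is -2.16 in T/T and 1.26 in null crypts. The fitted value of Exosc6, at 0 in T/T, depends on the pseudocount.

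Several genes of the groups above had passing differences in null crypts after DSS. Mptx1 read 39232, 27782 and 27798 in WT and 2495, 1303, 4010 and 2344 in null crypts (difference -3.73, adjusted p = 0.0029, limma). Atoh1 read 6378, 5059 and 7484 in WT and 2659, 2578, 3063 and 2853 in null crypts (-1.16, adjusted p = 0.016, limma), beside -1.13 in T/T. Muc1 differed by -1.99 (adjusted p = 0.035, limma) and Dlk1 by -3.55 (adjusted p = 0.023, limma), and both were wholly below WT in each colony. Without DSS, Muc1 read 1499, 1811 and 1643 in WT and 710, 439, 1236 and 744 in T/T (-1.17), and Atoh1 3261, 3746 and 3295 against 2424, 2864, 2499 and 3021 (-0.35). Neither passed the test at baseline (adjusted p = 0.86 for both, limma).

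On the endocrine side, Neurog3 rose in null crypts from 146, 69.4 and 107 in WT to 315, 352, 343 and 302 (difference 1.66, adjusted p = 0.032, limma). Ghrl, ghrelin, read 86.5, 38.1 and 53.8 in WT and 351, 222, 210 and 290 in null crypts (2.20, adjusted p = 0.023, limma), beside 62.1, 88.0 and 78.4 in WT and 113, 153 and 220 in T/T. Ang4 differed by 5.17 in null crypts (adjusted p = 0.0011, limma). In the tuft group, Dclk1 fell in null crypts, by 2.13 (adjusted p = 0.011, limma), and Trpm5 by 2.07 (adjusted p = 0.026, limma), yet Pou2f3 read 70.3, 40.1 and 47.4 in WT and 77.2, 40.5, 51.7 and 67.4 in null crypts. The tuft median was -1.30 in T/T, -0.06 in null and 0.11 in T/T without DSS.

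For other genes the values of the 2 alleles lay further apart. H2-Aa differed by -1.03 in T/T and by 0.05 in null crypts, Aqp8 by -1.35 and by -0.02, and Mki67 by 1.89 and by -0.34. Where the difference between the T/T and the null effect was itself tested over 13536 genes, 2 genes passed (0.0148%): Cbfa2t3, whose transcript is low in null crypts, and Tppp3, which differed by -2.88 in T/T and 0.28 in null crypts (difference of -3.16, adjusted p = 0.037). The corresponding test of T/T after DSS against T/T at baseline gave 8 genes (0.0604%), Tgm2, Yy2 and Ly6d in the direction of T/T being higher after DSS, and Tppp3, Exosc6, Rasd2, Wfdc2 and Cpm lower. Baseline and DSS libraries were sequenced under separate requests, 5094 and 5740, and the baseline libraries mix sexes, with Xist from 0 to 27627, whereas it read at most 4.29 in the 6 libraries after DSS. Injury, request and sex make-up cannot be told apart in that test. A replicate block left 0 calls in both tests, and edgeR gave 10 from baseline and 1 from null. Leaving out WT 1, WT 2 or T/T 1 after DSS also left 0 calls in both. Without T/T 2 there were 19 and 0, and without T/T 3 there were 3 and 1.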

How the data were processed

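The authors trimmed reads with fastp 0.20.0, quantified transcripts with Salmon 1.3.0 against GENCODE vM21 (GRCm38) and deposited gene-level counts divided by DESeq2 size factors (DESeq2 1.26.0, R 3.6.3), a signal on the scale of normalized counts, leaving out genes with at most 1 count over all samples. Their fold change and p-value columns were not used. From the deposited values, whole reads were recovered (100% of values within 0.02 of a whole number). The main test was limma 3.58.1 (R 4.3.3) with a trend on log2(normalized count + 1) over genes with a mean of at least 10, Benjamini-Hochberg adjusted, at 0.05. A count test was not the main one because the deposited unit is not raw counts. Alternatives were count models of the recovered reads (DESeq2 1.42.0, and the quasi-likelihood test of edgeR 4.0.16), beside a pseudocount of 0.1, no filter, TMM scaling, Xist as a covariate, a replicate block and leaving out libraries. Removal of GC and length trends (splines, 5 degrees of freedom per term) and a term for library sets were chosen after seeing the data. Differences between effects used moderated SEs with Welch-Satterthwaite degrees of freedom. The fits across genes were tested on simulated data that held no GC or length trend, so that trend was not covered.

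Named genes were Cbfa2t3, the 5 per direction with the smallest p, a mean of at least 50 in the higher group and no overlap, the first 2 tested of each list, 8 genes the study names (1 is not reported here), and genes that differed between effects; all further genes were chosen after their values were seen. Members and lists were chosen with earlier results of these data known. Replicate numbers were checked by the correlation of deviations of same-numbered samples. It was -0.03, -0.71 and -0.77 in T/T after DSS and 0.07, 0.16 and -0.28 at baseline, which do not pair. In the null colony it was 0.55, 0.46 and 0.32, but null 4 with WT 1, of unlike number, also reached 0.33. In T/T after DSS, T/T 2 with WT 3 reached 0.76. Whether samples of the null colony pair by number is therefore not settled by these values.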

Additional observations from a re-analysis of the deposited data

Results flagged for a closer look

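The effect of T/T against WT differed between crypts after DSS and crypts without DSS for 8 genes, by a test of the difference of the effects. Tgm2, at 1474, 1370 and 1163 in WT and 992, 988, 1234 and 825 in T/T without DSS, had an effect larger by 2.45 after DSS (adjusted p = 0.0023). Tppp3, at 697, 589 and 451 against 1198, 1266, 876 and 622 without DSS, had a difference of effects of -3.62 (adjusted p = 0.0076). Yy2 had reads in all 7 baseline libraries, 39.7, 31.3 and 34.1 in WT and 16.9, 65.3, 47.7 and 37.7 in T/T, and a difference of effects of 4.47 (adjusted p = 0.012). Exosc6 read 196, 500 and 257 in WT and 698, 454, 471 and 521 in T/T without DSS, and its difference of effects was -8.33 (adjusted p = 0.030). The fitted sizes for Yy2 and Exosc6 depend on the pseudocount because one genotype was at 0 after DSS.

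Wfdc2 and Cpm, both lower in T/T after DSS, overlapped between the genotypes without it. Wfdc2 read 7114, 7491 and 5137 in WT and 8590, 8507, 6678 and 7565 in T/T at baseline, with a difference of effects of -1.85. Cpm read 1637, 1412 and 1657 against 2524, 1961, 2088 and 1588, with a difference of effects of -2.08. Rasd2, a Ras-like small GTPase, read 760, 665 and 1030 against 1324, 1184, 1164 and 1472, wholly higher in T/T at baseline and wholly lower after DSS, where it read 2264, 2111 and 1733 in WT and 957, 1090 and 1060 in T/T (difference of effects -1.64, adjusted p = 0.032). Ly6d went the opposite way, at 58.5, 40.2 and 36.2 in WT and 16.1, 17.3, 19.1 and 25.5 in T/T at baseline, with a difference of effects of 3.33. The adjusted p was 0.041 for Wfdc2, Cpm and Ly6d.

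Between the alleles after DSS, 2 genes had differing effects. Cbfa2t3 differed by 2.15 (adjusted p = 0.0071), with its transcript low in null crypts only. Tppp3 differed by -3.16 (adjusted p = 0.037); in the null colony it read 2870, 1826 and 2487 in WT and 4895, 1735, 2264 and 3516 in null crypts, which overlap.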

How the results depend on the processing

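The count of 0 calls in T/T after DSS stayed at 0 with a pseudocount of 0.1, no filter on low values, TMM rescaling, edgeR and a replicate block. It became 334 by DESeq2, 121 with Xist as a covariate (all 6 libraries at or under 4.29 counts of Xist), 58 with GC and length trends removed, 132 with library sets as a term, and 0 to 3 with 1 library left out. At baseline the 5 calls became 53 by DESeq2, 3 with Xist, 0 with a replicate block, 0 with library sets, and 0 to 8 with 1 library left out. In the null colony the 91 calls became 727 by DESeq2, 1271 with the replicate block, 19 with Xist, 365 with GC and length trends removed, 159 with library sets, and 28 to 106 with 1 library left out. The 8 calls of the difference from baseline became 0 with the replicate block, 96 with GC and length trends removed, 59 with library sets, and 0 to 19 with 1 library left out. The 2 calls of the difference from null became 0 with the block, 1 by edgeR, and 0 to 4 with 1 library left out. In T/T after DSS same-numbered libraries do not pair, and the block gave 0 calls there too. The cause of these shifts was not tested.

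Among the named genes of T/T after DSS, differences changed sign for Tcf3 in 8 of 15 settings, Cbfa2t2 in 6, Lgr5 and Spdef in 3, and Mcm2 and Nkd1 in 2. With Xist as a covariate larger differences also turned, Clock from 1.53 to -0.73, Top2a from 1.45 to -0.38, Ifit1 from 1.23 to -0.81 and Hsp90b1 from 0.96 to -0.50 (GC-adjusted 0.77, 0.92, 0.63 and 0.35). List medians shrank as well with Xist, for goblet factors from -0.42 to -0.0012, for enteroendocrine factors from 0.95 to 0.22, the broad enteroendocrine list from 0.40 to 0.01, chemokines from 0.66 to 0.16 and the Clu-positive list from 0.20 to -0.07. Xist read 0, 0 and 0.862 in WT and 1.07, 4.29 and 0.931 in T/T, near the floor and without overlap. The covariate is thus confounded with genotype, and fits with it cannot be read as an adjustment for sex. With 3 libraries per genotype and GC trends of opposite sign within each genotype, small differences of GC-poor genes cannot be read from these data.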
